A study of Mus musculus with 6 samples.

Results

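Of 5749 deposited cells from 12 mouse tumours, 309 carried the class name DC_Nos2+ in the deposited annotation. All 309 were taken as the members, with their gene counts from the deposited expression table. They are called the Nos2+ class here, because their transcripts went against the dendritic part of the name, as described below. The tumours grew from PPS-ICBR, a mouse prostate cancer line made resistant to immune checkpoint blockade, in C57Bl6 mice. Leukocytes were taken from a Percoll gradient after enzymatic dissociation and profiled in droplets by sequencing the RNA of single cells.

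Each of the 4 groups had 3 tumours. The butanediol diet (BD) was a mix of 80 mL 1,3-butanediol, 120 mL water, 198 g chow and 2 g saccharine, and butanediol is a precursor of the ketone body β-hydroxybutyrate. It was compared with the standard diet (SD). The combined group (BD+ICB) had the butanediol diet and blocking treatment aimed at PD-1 and CTLA-4, listed at 0.2 mg, and was compared with the same blockade on standard chow (ICB). All groups carried the same resistant tumour line. The BD and SD tumours shared a library, and the BD+ICB and ICB tumours shared the other, so blockade and library cannot be told apart. Within a library the diet went together with the set of hashtags and with tumour size, and these cannot be told apart either. The deposited size, whose unit is not stated, was 184 ± 16.4 in BD and 1478 ± 773 in SD tumours, and 53.7 ± 33.9 in BD+ICB and 800.0 ± 447 in ICB tumours (SD, n = 3 each).

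Nos2 encodes the inducible nitric oxide synthase, which makes nitric oxide from arginine. Macrophages and monocyte-derived cells switch it on when interferon-gamma meets a microbial or inflammatory signal, and nitric oxide can both damage tumour cells and restrain T cells. Cells with this enzyme have been given dendritic or macrophage names depending on the surface markers used. Conventional dendritic cells depend on Flt3, a cytokine receptor, and express the transcription factor Zbtb46, whereas macrophages express Csf1r, the receptor for colony stimulating factor 1, and C1q complement genes.

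The cells of the Nos2+ class had the transcripts of monocytes and macrophages rather than those that define dendritic cells. After each cell was thinned to 2000 unique molecular identifiers (UMIs), which kept 307 cells, Flt3 was found in 0 of 307 cells and Zbtb46 in 0 of 307. Without thinning Flt3 was found in 2 of 309 cells and Zbtb46 in 0. In DC_other, the main dendritic class, thinned cells held Flt3 in 14.8% and Zbtb46 in 5.19%. Csf1r was found in 61.9% of thinned Nos2+ cells (95% Clopper-Pearson interval 56.2 to 67.3%), against 1.84% of CD8+ T cells, which should lack it. C1qa was found in 47.6%, Ly6c2, a monocyte surface protein, in 28.0%, and H2-Ab1, a chain of MHC class II, in 84.0% of thinned Nos2+ cells, while CD8+ T cells held C1qa in 5.34% and H2-Ab1 in 9.39%. Ly6c2 was also found in 46.8% of CD8+ T cells, which are known to express it. These intervals cover counting error only.

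Over whole marker lists the same order held. Levels are given as CPM, the counts of a gene summed over the cells of a class in a tumour and scaled to the same total. All 14 of 14 markers on the macrophage list reached 20 CPM, as did 11 of 12 on the monocyte list. Only 1 of 8 shared dendritic markers did, which was Itgax, a gene that macrophages also use. Of the type 1, type 2 and migratory dendritic lists, 2 of 9, 3 of 9 and 3 of 11 markers reached that level. The T cell list had 0 of 9 members at 20 CPM, the neutrophil list 7 of 10 and the fibroblast list 5 of 7. Of all genes measured, 26.0% reached that level, so that reaching it does not by itself mark a lineage. The macrophage markers summed to 9259 CPM at the median tumour, the neutrophil markers to 797 CPM and the fibroblast markers to 235 CPM. Correlation of whole profiles within tumours, over 5780 genes, gave a median Pearson r of 0.953 with Mac_M1, 0.929 with Mono_Vcan+, 0.924 with Mac_M2_Mmp+ and 0.820 with DC_other. The ranges over tumours were 0.888 to 0.975, 0.876 to 0.946, 0.849 to 0.932 and 0.730 to 0.863 in the same order. Mac_M2_Trem2+ (0.912), Mac_other (0.900) and Prof_immune (0.826) lay between. The tumours differed between classes. DC_other had 135 cells in all and Mac_M1 had 535, and the part of cell number in r was not tested. These correlations run over genes, which share a library and are not independent, and are given as a description. No new cell type name is given to the class here.

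**Figure D1:**
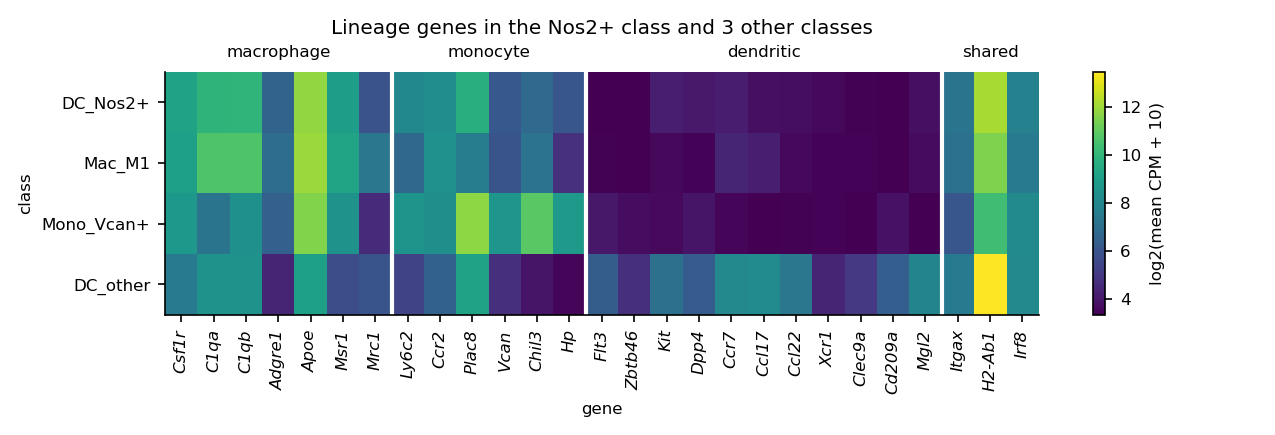
Mean level of lineage genes, as log2(mean CPM + 10) over tumours with at least 10 cells, in the Nos2+ class and 3 other classes (rows), with genes in columns grouped by lineage. In the macrophage block Csf1r is at 561 CPM in the Nos2+ class and 514 CPM in Mac_M1, whereas Mrc1 is lower in the Nos2+ class. Over the 14 markers of the whole macrophage list the median within-tumour difference from Mac_M1 was -0.28 (log2). In the row of the Nos2+ class Flt3 and Zbtb46 are at the bottom of the scale.

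Of the 5 genes that mark the class, the RefSeq promoter table held Cxcl9 and Inhba. Cxcl9, a chemokine that draws CXCR3-bearing T cells, is shown because it had the smallest adjusted p of the differences tested below. The stretch covers 250 bases before to 50 after the start, on the minus strand of GRCm38.p6 at chr5:92328030-92328329, with the matching site in capitals.

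Cxcl9 promoter: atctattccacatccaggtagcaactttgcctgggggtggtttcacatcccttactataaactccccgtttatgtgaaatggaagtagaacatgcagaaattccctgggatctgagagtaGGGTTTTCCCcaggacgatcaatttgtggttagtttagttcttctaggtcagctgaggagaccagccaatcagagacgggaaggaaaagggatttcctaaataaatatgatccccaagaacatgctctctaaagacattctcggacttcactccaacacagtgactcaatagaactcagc

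The capitals mark a kappa-B motif (GGGA, any 4 bases, then CC, searched on both strands), which lies on the other strand 130 to 121 bases before the start. At least 1 such match was present in 20.7% of 32851 promoters of the same length. No interferon-gamma activated site (TTCNNNGAA, in 8.30% of promoters) and no interferon-stimulated response element (GAAA, any 2 bases, then GAAA, in 3.44%) was found in this stretch. The Inhba stretch held none of the 3 motifs. A match is a description of letters and not a bound site.

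In each tumour given the butanediol diet with blockade the Nos2+ class held a larger share of the cells than in any tumour given blockade alone. The 3 BD+ICB tumours held 87 of 571, 94 of 651 and 38 of 508 cells of the class, or 15.2, 14.4 and 7.48%. The 3 ICB tumours held 41 of 832, 6 of 569 and 15 of 913 cells, or 4.93, 1.05 and 1.64%. Every BD+ICB tumour was above every ICB tumour, with means of 12.4 ± 4.27% in BD+ICB and 2.54 ± 2.09% in ICB tumours (SD, n = 3 each). A lack of overlap with the BD+ICB tumours higher was found in 15.8% of the 19 classes, and a lack of overlap in either direction in 21.1%. Mac_M1 was also higher without overlap, so this is not particular to the Nos2+ class. It held 18.6, 16.0 and 16.7% of cells in BD+ICB tumours and 5.89, 5.98 and 7.23% in ICB tumours.

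Without blockade the class was scarce. The 3 BD tumours held 19 of 303, 0 of 70 and 0 of 117 cells, so that the whole class in this group came from BD replicate 1, at 6.27% (95% Clopper-Pearson interval 3.82 to 9.62%). A count of 0, which allows 3 counts, limited the share to 4.29% in BD replicate 2 and 2.56% in BD replicate 3, and the upper Clopper-Pearson bounds were 5.13 and 3.10%. The 3 SD tumours held 5 of 416, 2 of 278 and 2 of 521 cells, or 1.20, 0.719 and 0.384%. The BD tumours lay both above and below the SD tumours, whereas 26.3% of classes did not overlap between these groups, 10.5% with BD higher.

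The mean share was 5.58 percentage points higher with the butanediol diet over both libraries (two-sided exact permutation p = 0.05, adjusted p = 0.136 over 19 classes). The difference of BD+ICB from ICB was 9.84 points, with p = 0.1 by the exact test, the smallest that 3 against 3 tumours can give, and an adjusted p of 0.422. BD and SD differed by 1.32 points (exact p = 1), and by -0.768 points without BD replicate 1. The diet differences of the 2 libraries did not differ past the threshold (8.52 points, exact permutation p = 0.11). By edgeR on cells per class, which assumes a spread shared by all classes, the class was higher by 2.26 (log2) in BD+ICB than in ICB tumours (adjusted p = 0.0157), with 10.5% of classes called. The same edgeR model gave 2.08 for the diet over both libraries (adjusted p = 0.00301), with 36.8% of classes called, and 1.90 for BD against SD (adjusted p = 0.113), with 26.3% called. Mac_M1, which neighbours the class, was also called in this model for the diet over both libraries, at 1.71.

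Among mononuclear phagocytes alone, the class was 20.3 ± 7.13% in BD+ICB and 5.50 ± 2.95% in ICB tumours (SD, n = 3 each). Set only against Mac_M1, the class most like it, the groups overlapped. The Nos2+ class was 45.1, 47.5 and 30.9% of the sum of both classes in BD+ICB tumours, and 45.6, 15.0 and 18.5% in ICB tumours. ICB replicate 1 thus matched the BD+ICB tumours in this ratio. Without blockade the ratio was 29.7, 0.0 and 0.0% in BD tumours, where replicate 2 had 1 Mac_M1 cell, and 23.8, 33.3 and 15.4% in SD tumours. Its mean was 14.8 points higher in BD+ICB than in ICB tumours (exact permutation p = 0.3), was lower by a difference of -14.3 points in BD than in SD tumours (exact p = 0.3), and was 0.255 points higher with the diet over both libraries (exact p = 0.98). Whether the diet difference in this ratio differs between the libraries was not tested. How the deposited classes were drawn is not given in the sources used here.

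**Figure D2:**
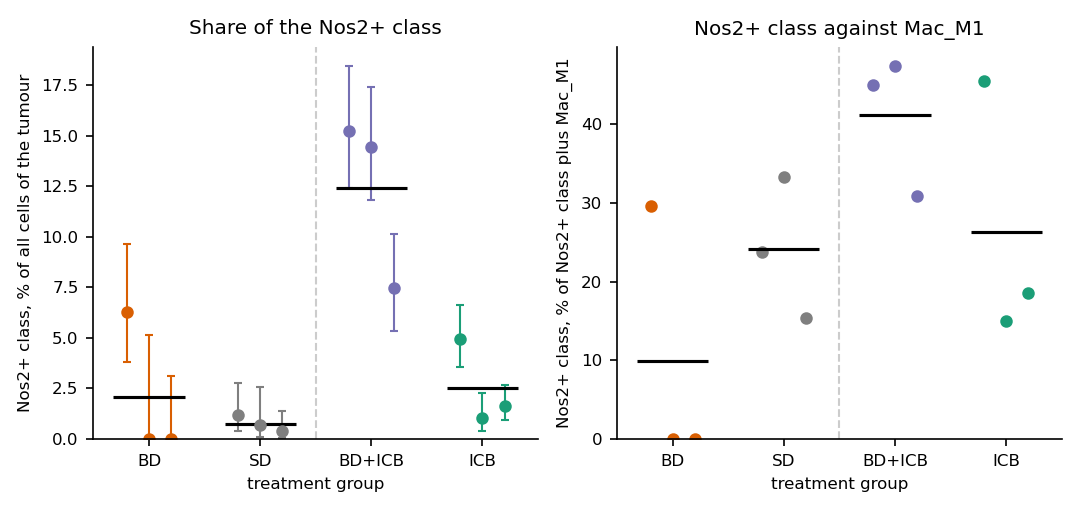
Share of the Nos2+ class in each tumour, as percent of all cells with 95% Clopper-Pearson intervals (left) and as percent of Nos2+ plus Mac_M1 cells (right), with each dot a tumour, bars the group means and the dashed line parting the 2 libraries. The BD+ICB tumours sit at 7.48 to 15.2% of cells, above the ICB tumours at 1.05 to 4.93%, whereas the ratio to Mac_M1 overlaps between these groups and averages 9.90% in BD and 24.2% in SD tumours.

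The cells of the class had a median of 9396 UMIs, from 1660 to 29679, and 2526 genes. Summed over cells, the class held 375947 to 1077559 UMIs in BD+ICB tumours, 383122 in ICB replicate 1, 101842 in ICB replicate 3 and 146808 in BD replicate 1. By a stricter hashtag rule 291 of 309 cells kept their tumour, and 11 cells had under 600 hashtag counts, where every deposited cell had over 500. The libraries shared 1931 barcodes, of which 1 belonged to a cell of the class. Levels per tumour are given for the 6 tumours with at least 10 cells of the class, which were BD replicate 1, all BD+ICB tumours and ICB replicates 1 and 3.

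Nos2 itself was unevenly spread over the cells named for it. A Nos2 UMI was found in 108 of 309 cells (35.0%), and in 18.9% of thinned cells (interval 14.7 to 23.7%), against 12.7% of thinned Mac_M1 cells and 0.737% of CD8+ T cells. In BD+ICB tumours the class had 283, 122 and 247 CPM of Nos2, and in ICB replicates 1 and 3 it had 138 and 245 CPM, while BD replicate 1 had 163 CPM. The groups overlapped. A few cells carried much of this: in ICB replicate 3, 19 of the 25 Nos2 UMIs came from 1 cell, and in BD replicate 1, 15 of 24 did. The 6 cells of ICB replicate 2 and the 9 cells of the SD tumours held 0 Nos2 UMIs.

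Nos2 was not highest in the class that bears its name. Among classes with at least 10 cells in a tumour, mean Nos2 was 199.9 ± 67.0 CPM in the Nos2+ class (n = 6 tumours) and 268.7 ± 188 CPM in Mac_M2_Mmp+ macrophages (n = 12). Neu_Hilpda+ neutrophils followed at 185.9 ± 99.7 CPM (n = 8), Neu_Ifit+ neutrophils at 157 ± 111 CPM (n = 4), Mac_M1 at 84.8 ± 101 CPM (n = 10), Mono_Vcan+ at 75.5 ± 63.3 CPM (n = 7) and DC_other at 10.4 ± 18.1 CPM (n = 7). Mono_Ifit+ monocytes, measured in 1 tumour, had 301.0 CPM. Mac_M2_Mmp+, the Nos2+ class and Neu_Hilpda+ lay within each other's spread, and CD8+ T cells had 5.73 CPM. These means run over different tumours. Over the 6 tumours with at least 10 cells of the Nos2+ class, Nos2 was at 199.9 ± 67.0 CPM in the Nos2+ class, 399 ± 150.1 CPM in Mac_M2_Mmp+ and 128 ± 111 CPM in Mac_M1 (SD, n = 6). The Nos2+ class was below Mac_M2_Mmp+ in all of these 6 tumours.

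The other markers were more widely shared among cells of the class. Ly6i, a surface protein of the Ly6 family, was found in 48.2% of thinned cells (72.2% without thinning), against 0.921% of CD8+ T cells. Cfb, complement factor B of the alternative pathway, was found in 42.3% (73.5% without thinning), against 0.552%. Inhba, which encodes the activin A subunit, was found in 53.1% (73.8%), against 9.39%, and Cxcl9 in 45.9% (61.5%), against 4.42%. Ly6i has near-identical family members, and how reads that match several of them were counted is not given in the sources used here.

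Levels of these 4 genes were set beside those of other classes over the same 6 tumours (SD, n = 6). Mean Ly6i was 398.6 ± 252 CPM in the Nos2+ class, 239 ± 184 CPM in Mac_M1 and 217 ± 246 CPM in Mac_M2_Trem2+, and the Nos2+ class was higher than each in 6 of 6 tumours. Mean Cfb was 357.8 ± 174 CPM in the Nos2+ class, 320.2 ± 333 CPM in Mac_M2_Trem2+ and 217 ± 116 CPM in Mac_M1. Mean Inhba was 826.9 ± 486 CPM in the Nos2+ class, 828.8 ± 507 CPM in Mac_M2_Mmp+ and 682.6 ± 482 CPM in Mac_M1, and the Nos2+ class was above Mac_M2_Mmp+ in 2 of 6 tumours. Mean Cxcl9 was 1316 ± 599.5 CPM in the Nos2+ class and 1221 ± 486 CPM in Mac_M1, with the Nos2+ class higher in 3 of 6 tumours. Mono_Vcan+ and DC_other could be set beside the Nos2+ class in 5 tumours each, and the Nos2+ class was higher in all 5 for each of the 4 genes. In its 1 tumour Mono_Ifit+ had more Ly6i, Cfb and Cxcl9 than the mean of the Nos2+ class.

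**Figure D3:**
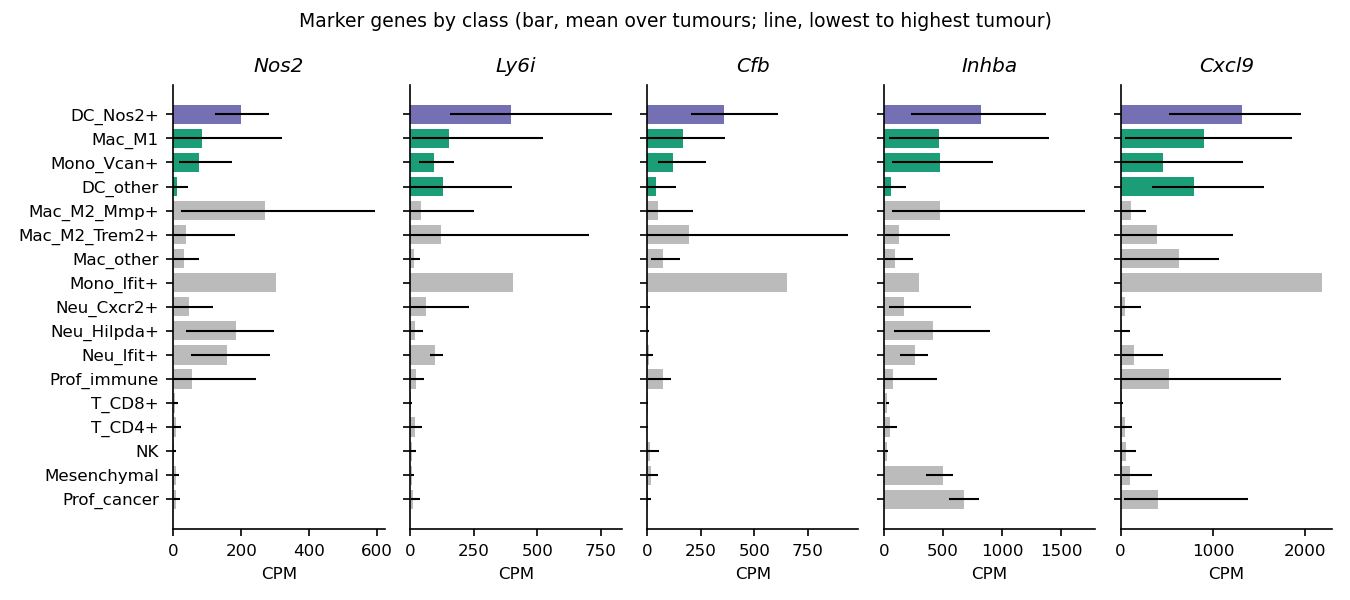
Level of the 5 marker genes by class, as CPM of counts summed per tumour and class, with bars for the mean over tumours with at least 10 cells and lines from the lowest to the highest tumour. T_reg and cDC_Batf3+ cells are not drawn. Mean Nos2 is higher in Mac_M2_Mmp+ macrophages (268.7 CPM) than in the Nos2+ class (199.9 CPM), whereas the other markers have their highest replicated mean in the Nos2+ class. The classes were measured in different sets of tumours. Over the 6 tumours shared with Mac_M2_Mmp+, mean Inhba was 826.9 CPM in the Nos2+ class and 828.8 CPM in Mac_M2_Mmp+, with the Nos2+ class higher in 2.

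Few cells carried all markers at once. Without thinning, 52 of 309 cells had a UMI of all 5 genes, 89 of 4, 76 of 3, 52 of 2, 28 of 1 and 12 of none. After thinning only 7 of 307 cells had all 5, and 31 had none. Over the 309 cells, levels per UMI of Ly6i and Cfb went together most (Spearman rho 0.418), followed by Ly6i with Inhba (0.360) and Nos2 with Inhba (0.288). Nos2 and Ly6i were nearly unrelated (rho 0.0729). These values run over cells that share tumours and depth, and are a description.

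Mac_M1 differed from the Nos2+ class in few genes. Levels were compared within each tumour as differences of log2(CPM + 10), a scale that understates the change of low genes, over genes of at least 20 CPM. No test is given, because the class names are taken to rest on the same expression data. Of 5288 genes, 4 were at least 2-fold higher in the Nos2+ class than in Mac_M1 with the same sign in all 6 tumours (0.0756%), and 12 were lower (0.227%). With a pseudocount of 1 CPM in place of 10, which gives low genes more weight, 8 were higher and 61 lower.

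The highest of the 4 was Ccl5, a chemokine for T cells and monocytes. In the Nos2+ class Ccl5 was at 818, 1202 and 279 CPM in BD+ICB tumours, 1381 and 579 CPM in ICB replicates 1 and 3, and 320.1 CPM in BD replicate 1. In Mac_M1 of the same tumours it was at 348, 279.9 and 95.4 CPM in BD+ICB, 190.4 and 67.0 CPM in ICB, and 48.2 CPM in BD. The mean difference was 2.16 ± 0.71 (log2, SD, n = 6), and the Nos2+ class was higher in 6 of 6 tumours. T cells express Ccl5 strongly, with a mean of 4514 CPM in CD8+ cells. The T cell markers in the Nos2+ class summed to 7.89 CPM at the median tumour and 0.00 to 422 CPM over tumours, and their part in the Ccl5 level was not tested.

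The other 3 genes were Plac8, a monocyte gene, at 1.67 ± 0.63, Il1r2, the decoy receptor for interleukin-1 and a gene on the neutrophil list, at 1.28 ± 0.59, and Jaml, an adhesion molecule, at 1.07 ± 0.63. Genes lower in the Nos2+ class than in Mac_M1 included Pf4, a platelet-type chemokine that macrophages also make, at -1.74 ± 0.64, Ccl7, a chemokine for monocytes, at -1.55 ± 0.72, and Mrc1, the mannose receptor, at -1.38 ± 0.57. Ckb, the brain-type creatine kinase, was at -1.55 ± 0.96, and Ccnd1, the cell cycle regulator cyclin D1, at -1.20 ± 0.32. Of the fixed lists, none of 23 interferon-gamma response genes, 18 MHC class I genes, 8 MHC class II genes, 19 NF-kB and TNF response genes or 12 genes of nitric oxide and arginine metabolism passed in either direction. The monocyte list had a median of 0.43 and the macrophage list of -0.28, against -0.08 over all genes measured.

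Nos2 did not separate the class from Mac_M1 in every tumour. It was higher in the Nos2+ class in 4 of 6 tumours, at a mean of 1.00 ± 1.17 (log2). Cxcl9 was higher in 3 of 6, at 0.10 ± 1.12, and Inhba in 5 of 6, at 0.32 ± 0.38. Ly6i (0.89 ± 0.53) and Cfb (0.82 ± 0.72) were higher in 6 of 6 tumours. Arg1, which encodes the arginase that competes with nitric oxide synthase for arginine, was lower in the Nos2+ class in 5 of 6 tumours, at -0.64 ± 0.43, with 1163 CPM in the Nos2+ class and 1866 CPM in Mac_M1.

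Mono_Vcan+ monocytes stood further away. Of 5124 genes in 5 tumours, 101 passed the same rule higher in the Nos2+ class (1.97%) and 79 lower (1.54%). The higher genes included C1qa, C1qb and C1qc, the chains of complement C1q, at 3.46 ± 0.86, 2.18 ± 0.77 and 2.87 ± 0.54 (log2). Ccl5 was at 3.32 ± 0.54, the matrix protease gene Mmp12 at 2.78 ± 1.08 and Ly6i at 2.04 ± 0.48. Of 9 measured genes of MHC class II presentation, 5 were higher and 0 lower, among them H2-Eb1 at 1.79 ± 0.60 and H2-Ab1 at 1.53 ± 0.64. Of 10 complement genes, 4 were higher and 0 lower.

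Genes lower in the Nos2+ class than in Mono_Vcan+ were led by monocyte genes. Of 12 monocyte markers 7 were lower and 0 higher, including Chil3, a chitinase-like secreted protein, at -2.97 ± 0.59, Vcan, a matrix proteoglycan, at -2.49 ± 0.40, and Plac8 at -2.10 ± 0.41. Cxcl10, an interferon-induced chemokine for the same receptor as Cxcl9, was lower in 5 of 5 tumours, at -1.85 ± 0.76. Plac8 thus stood between the classes, with 844 CPM in the Nos2+ class and 239 CPM in Mac_M1 over 6 tumours, and 986 CPM in the Nos2+ class and 3945 CPM in Mono_Vcan+ over 5 tumours.

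DC_other was the farthest of the 3. Of 5394 genes in 5 tumours, 492 were higher in the Nos2+ class (9.12%) and 236 lower (4.38%). Higher genes included Arg1 at 5.81 ± 1.63 (log2), Apoe, a lipid carrier, at 5.24 ± 2.07, and Nos2 at 3.37 ± 1.23. Of 14 macrophage markers, 11 were higher and 0 lower, and of 10 complement genes 7 were higher. Lower genes included Ccl17 and Ccl22, chemokines of mature dendritic cells, at -4.63 ± 1.20 and -3.44 ± 1.55, and Ccr7, the receptor that leads them to lymph nodes, at -4.32 ± 0.72. Of 11 MHC class II genes 6 were lower, with H2-Ab1 at 4866 CPM in the Nos2+ class and 11142 CPM in DC_other. Of 6 measured shared dendritic markers, 5 were lower and 0 higher.

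**Figure D4:**
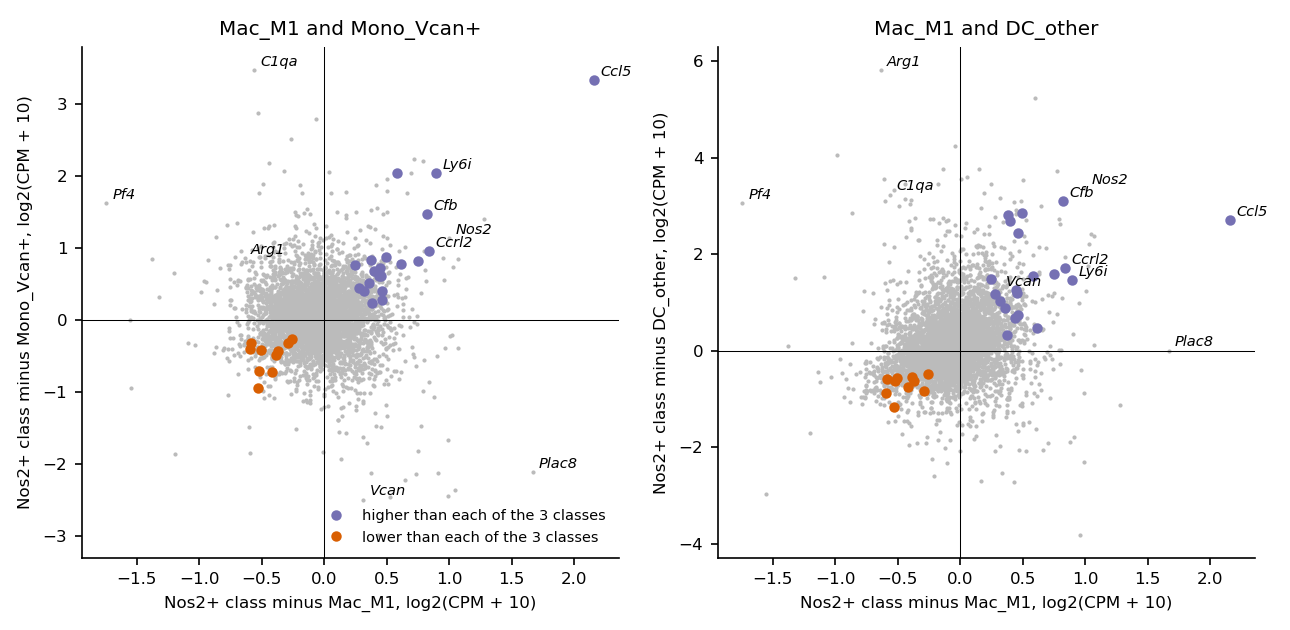
Mean within-tumour difference of each gene, as log2(CPM + 10), of the Nos2+ class minus Mac_M1 (horizontal in both panels) against the Nos2+ class minus Mono_Vcan+ (left) or DC_other (right), with coloured dots for genes on the same side of all 3 classes in every tumour. Ccl5 stands at 2.16 against Mac_M1, 3.32 against Mono_Vcan+ and 2.71 against DC_other, and Plac8 is above Mac_M1 but 2.10 below Mono_Vcan+.

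Of 4845 genes measured against all 3 classes, 27 were higher in the Nos2+ class than in each of them in every tumour compared, and 22 were lower. Ranked by the smallest of the 3 differences, Ccl5 came first (2.16), followed by Ly6i (0.89), Ccrl2 (0.84), an atypical receptor for chemerin, and Cfb (0.82). Smpdl3b, a lipid phosphodiesterase of the plasma membrane, followed at 0.75. Further genes included Il1b, an inflammatory cytokine, at 0.44, Il1rn, the natural antagonist of the interleukin-1 receptor, at 0.40, Tlr2, a receptor for bacterial lipoproteins, at 0.41, and Tnfaip2, a TNF-induced gene, at 0.32. The MHC class I gene H2-K1 was at 0.32.

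Ccrl2 shows how steady some of these were. The class had 393, 541 and 402 CPM of Ccrl2 in BD+ICB tumours, 574 and 638 CPM in ICB replicates 1 and 3, and 484 CPM in BD replicate 1. Mac_M1 of the same tumours had 349, 378 and 227 CPM in BD+ICB, 238 and 264 CPM in ICB, and 221 CPM in BD. In these tumours every value of the Nos2+ class lay above every value of Mac_M1. Mac_M2_Mmp+, which was not among the 3 classes, had 239, 549 and 275 CPM in BD+ICB, 360.4 and 234 CPM in ICB, and 275 CPM in BD. It was thus above the Nos2+ class in BD+ICB replicate 2.

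The genes lower in the Nos2+ class than in all 3 had small differences. Ufc1, an enzyme that conjugates the ubiquitin-like protein UFM1, led with -0.53, followed by Sec11c, a subunit of the signal peptidase, at -0.52. Prdx2, a peroxiredoxin, was at -0.42, Nme2, a nucleoside diphosphate kinase, at -0.41, and Hint1, a nucleotide hydrolase, at -0.40. Genes of mitochondria were also among the 10 named by rank, with Ndufb10 of respiratory complex I at -0.37 and Mpc2 of the pyruvate carrier at -0.29. Mac_M2_Mmp+ was not among the 3 classes. In BD+ICB tumours it had 405, 336 and 430 CPM of Nme2, where the Nos2+ class had 592, 587 and 516 CPM. Its Ufc1 was at 60.1, 68.3 and 55.3 CPM there, against 50.0, 72.4 and 55.9 CPM in the Nos2+ class.

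Diet comparisons of genes within the class could be made only under blockade. Over 5679 genes, edgeR's quasi-likelihood test with Benjamini-Hochberg adjustment called 0 genes between 3 BD+ICB and 2 ICB tumours (0.0%). ICB replicate 2 was left out for its 6 cells. BD replicate 1 was fitted as a group of its own, so it added nothing to the estimate of spread. With only the BD+ICB and ICB tumours in the fit, 4665 genes were tested and 0 called. At an unadjusted p under 0.05 there were 296 genes (5.21%), with 2.57% of all genes higher and 2.64% lower in BD+ICB, and DESeq2 called 3. The groups did not overlap in 11.6% of genes with BD+ICB higher and in 12.7% with BD+ICB lower. The values that follow are therefore a description and not calls.

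Inhba had 1377, 1295 and 989.5 CPM in BD+ICB tumours and 303 and 766 CPM in ICB tumours, so that the groups did not overlap. Its fitted difference was 1.36 ± 0.38 (log2, SE; adjusted p = 0.927 in edgeR). It was 0.73 without ICB replicate 1 (adjusted p = 0.361 in edgeR) and 2.04 without ICB replicate 3 (adjusted p = 7.95e-04), where a single ICB tumour is left and is assumed to vary like the other groups. Over thinned cells Inhba was found in 64.4, 69.1 and 47.4% of cells in BD+ICB tumours, against 26.8 and 30.8% in ICB tumours. Ly6i had 626, 793 and 247 CPM in BD+ICB tumours and 324 and 245 CPM in ICB tumours, and Cfb had 543, 612 and 237 CPM in BD+ICB tumours and 266 and 285 CPM in ICB tumours. Both overlapped between the groups, as did Cxcl9, at 1956, 731 and 521 CPM in BD+ICB and 1900.2 and 1218 CPM in ICB tumours. BD replicate 1, from the other library, had 232 CPM of Inhba and 1567 CPM of Cxcl9.

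Genes of arginine supply were among those with small unadjusted p. Ass1, which rebuilds arginine from citrulline, had 581, 559 and 423 CPM in BD+ICB tumours and 217 and 363 CPM in ICB tumours, a difference of 0.99 ± 0.23 (SE; adjusted p = 0.745 in edgeR). Slc7a2, an arginine importer, had 109, 105 and 112 CPM in BD+ICB tumours and 70.5 and 29.5 CPM in ICB tumours, a difference of 0.87 that was 1.92 without ICB replicate 1. Of the 12 genes of nitric oxide and arginine metabolism, 0 passed the adjusted threshold and 2 had p under 0.05, both higher in BD+ICB.

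The medians of the monocyte and macrophage lists pointed in different directions, again without a call. Plac8 had 1513, 1605 and 878 CPM in BD+ICB tumours and 540.3 and 393 CPM in ICB tumours, at 1.504 ± 0.27 (SE; adjusted p = 0.572 in edgeR). It was called in 4 of 17 alternative settings, among them without BD+ICB replicate 3, at 1.72 (adjusted p = 0.00325 in edgeR). Cx3cr1, the fractalkine receptor, had 4.54, 5.57 and 2.66 CPM in BD+ICB tumours and 54.8 and 9.82 CPM in ICB tumours, a difference of -3.06 that was -0.99 without ICB replicate 1. Apoe had 2972, 1514 and 1423 CPM in BD+ICB tumours and 6677 and 5116 CPM in ICB tumours, and Trem2, a lipid receptor of macrophages, had 149.96, 153 and 168 CPM in BD+ICB tumours and 326 and 216 CPM in ICB tumours. Apoe was at -1.55 (adjusted p = 0.927 in edgeR), and from -1.98 to -1.31 over 17 alternative settings. It was called in 4 of these 17, among them without BD+ICB replicate 1, at -1.98 (adjusted p = 1.18e-08 in edgeR). Over the 14 macrophage markers the median difference was -0.39, with 8 negative and 6 positive estimates. Of these markers 5 had p under 0.05, all lower in BD+ICB, while Adgre1 was at 0.30. Over the 12 monocyte markers the median was 0.23, with 10 positive and 2 negative estimates. There 2 had p under 0.05, both higher. The median over all genes tested was -0.01, with 2808 of 5679 estimates positive and 296 genes at p under 0.05. The macrophage markers summed to 5533 to 8314 CPM in BD+ICB tumours and 10497 to 12928 CPM in ICB tumours. Apoe alone gave 1423 to 2972 and 5116 to 6677 CPM of these sums. Of the neutrophil markers 7 of 10 were tested, with 6 negative estimates, a median of -0.82 and 1 at p under 0.05. They summed to 420.4 to 1083 CPM in BD+ICB tumours and 681 and 2632 CPM in ICB tumours, and their part in these differences was not tested.

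Over all genes tested, 2808 of 5679 had positive estimates and 296 had p under 0.05. Members of a list were measured in the same tumours and are not independent. Of the 18 genes of MHC class I presentation, 17 had positive estimates, with a median of 0.27, and 4 had p under 0.05. They were Psmb9, a subunit of the immunoproteasome, at 0.63 ± 0.23 (SE), the peptide transporter genes Tap1 at 0.76 ± 0.29 and Tap2 at 0.66 ± 0.25, and Psme1, a proteasome activator, at 0.48 ± 0.17. Tap1 was at 2.02 without ICB replicate 1 and at 0.42 without ICB replicate 3. None passed the adjusted threshold. The 24 tested interferon-gamma response genes had 12 positive and 12 negative estimates. Ketone body genes, of which 9 of 14 were tested, had 1 at p under 0.05, Hmgcs1, an enzyme of sterol synthesis, at 23.7 ± 1.37 CPM in BD+ICB tumours (n = 3) and 60.0 and 68.7 CPM in ICB tumours. Hcar2, the receptor for β-hydroxybutyrate, had 40.9, 48.3 and 85.1 CPM in BD+ICB tumours and 23.5 and 108 CPM in ICB tumours, which overlapped.

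Without blockade no gene test was made, since only BD replicate 1 had 10 cells. In the SD tumours, the 5, 2 and 2 cells of the class held 14, 0 and 24 UMIs of Ly6i, 11, 0 and 12 UMIs of Cfb, 0, 1 and 1 UMIs of Inhba, and 262, 1 and 30 UMIs of Cxcl9.

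The diet difference under blockade was then compared between the Nos2+ class and each of the 3 other classes in the same tumours. This asks whether the class differed from its neighbours with the diet, and each tumour served as its own block. The class names are taken to rest on the same expression data, so the assignment of cells can shape marker levels in both classes. Its part in the p-values below was not tested. Against Mac_M1, 4 of 7255 genes (0.0551%) passed an adjusted p of 0.05 in edgeR's interaction test, all with a lower difference in the Nos2+ class. DESeq2 called 0. At an unadjusted p under 0.05 there were 5.29% of genes, 2.72% higher and 2.58% lower.

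Nos2 was the first of the 4. In the Nos2+ class it had 283, 122 and 247 CPM in BD+ICB tumours and 138 and 245 CPM in ICB tumours, whereas Mac_M1 had 320.1, 152 and 161 CPM in BD+ICB tumours and 34.2 and 82.9 CPM in ICB tumours. Within tumours the Nos2+ class was thus below Mac_M1 in 2 BD+ICB tumours and above it in 1, with log2 differences of -0.17, -0.30 and 0.59, and above it in ICB tumours, with 1.75 and 1.46. The interaction was -1.76 ± 0.31 (log2, SE; adjusted p = 0.0158 in edgeR). A difference lower in all BD+ICB than in all ICB tumours was found in 11.0% of genes. As given above, 19 of 25 Nos2 UMIs of the Nos2+ class in ICB replicate 3 were from 1 cell.

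The call for Nos2 was lost without BD+ICB replicate 1 (-1.66, adjusted p = 0.0549), without ICB replicate 1 (-1.49, adjusted p = 0.244) and without ICB replicate 3 (-2.001, adjusted p = 0.109), all in edgeR. Over all leave-outs it lay between -2.01 and -1.49, and without either ICB tumour a single one is left, whose spread is taken from the other tumours. Where tumours with at least 5 cells were let in, which adds ICB replicate 2 with its 0 Nos2 UMIs, it was -1.29 with an adjusted p of 0.995. By the stricter hashtag rule it was -1.25 with an adjusted p of 0.425, and 0 of the 4 genes were called under either setting.

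Ccl5 and Il1rn had the same direction. Ccl5 had an interaction of -1.28 ± 0.22 (SE; adjusted p = 0.0177 in edgeR), with the class above Mac_M1 by 1.21, 2.06 and 1.46 in BD+ICB tumours and by 2.80 and 2.94 in ICB tumours. Of the 59 Ccl5 UMIs of the class in ICB replicate 3, 41 were in 1 cell. Il1rn was at -0.72 ± 0.15 (SE; adjusted p = 0.0266 in edgeR), with 1555, 1645 and 1351 CPM in BD+ICB and 1665 and 2150 CPM in ICB tumours for the Nos2+ class. Mac_M1 had 1442, 1569.8 and 1254 CPM of Il1rn in BD+ICB and 1109 and 979.6 CPM in ICB tumours.

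The fourth gene, Ms4a4b, a T cell gene with close paralogs, had its difference in a single cell. Its interaction was -4.55 ± 0.93 (SE; adjusted p = 0.0266 in edgeR), and all 17 Ms4a4b UMIs of the class in ICB replicate 3 came from 1 of the 15 cells. The 15 cells held 43 UMIs of the 9 T cell markers, and 1 of them had 2 or more. Without cells holding at least 2 T cell UMIs, in both classes, Nos2 was at -1.75 (adjusted p = 0.00451 in edgeR), Ccl5 at -0.89 (adjusted p = 0.680) and Il1rn at -0.81 (adjusted p = 0.107), and Ms4a4b was not tested. Leaving out a BD+ICB tumour other than replicate 2, or either ICB tumour, also ended the call of Ccl5, with differences from -1.38 to -1.06 and adjusted p from 0.0549 to 0.377 in edgeR. Il1rn passed with 1 tumour left out only without ICB replicate 1 (-0.96, adjusted p = 0.00231 in edgeR), where the single ICB tumour left was replicate 3, and there 90 of its 219 Il1rn UMIs in the class came from 1 cell. Without ICB replicate 3 it was -0.47 (adjusted p = 0.662 in edgeR).

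Against Mono_Vcan+, 4 of 6951 genes (0.0575%) passed, again all lower, and 5.93% had an unadjusted p under 0.05, with 2.81% higher and 3.12% lower. Cxcl9 in the Nos2+ class had 1956, 731 and 521 CPM in BD+ICB and 1900.2 and 1218 CPM in ICB tumours, while Mono_Vcan+ had 1322, 659 and 380.3 CPM in BD+ICB and 416 and 385 CPM in ICB tumours. The Nos2+ class was above Mono_Vcan+ by 0.56, 0.15 and 0.45 in BD+ICB and by 2.16 and 1.64 in ICB tumours. The interaction was -1.54 ± 0.21 (SE; adjusted p = 1.55e-04 in edgeR). A difference lower in all BD+ICB tumours was found in 10.9% of genes in this pair of classes.

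C1qa followed with -1.68 ± 0.26 (SE; adjusted p = 6.89e-04 in edgeR). It had 878, 707 and 654 CPM in BD+ICB and 1015 and 1159 CPM in ICB tumours in the Nos2+ class. In Mono_Vcan+ it had 115, 104 and 70.0 CPM in BD+ICB tumours and 37.1 and 47.9 CPM in ICB tumours. Levels thus came closer between the classes in BD+ICB tumours from both sides. Of the 118 C1qa UMIs of the class in ICB replicate 3, 83 were in 1 cell.

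Cxcl10 was lower in the Nos2+ class than in Mono_Vcan+ throughout, by more in BD+ICB tumours. The Nos2+ class had 302, 192 and 231 CPM in BD+ICB and 616 and 245 CPM in ICB tumours, and Mono_Vcan+ had 1183, 1076 and 1545 CPM in BD+ICB and 1123 and 634 CPM in ICB tumours. The interaction was -1.34 ± 0.25 (SE; adjusted p = 0.0139 in edgeR). AA467197 was at -0.93 ± 0.17 (SE; adjusted p = 0.0108 in edgeR).

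No gene of this set passed without BD+ICB replicate 2, where Cxcl9 was at -1.39 (adjusted p = 0.0541 in edgeR) and C1qa at -1.56 (adjusted p = 0.0636). DESeq2 called 3 genes, among them Cxcl9 and C1qa, and Cxcl10 also lost its call without ICB replicate 1 (-0.94, adjusted p = 0.599 in edgeR) and without BD+ICB replicate 3 (-1.20, adjusted p = 0.0623). AA467197 lost it without ICB replicate 3 (-0.83, adjusted p = 0.107) and without BD+ICB replicate 2 (-0.84, adjusted p = 0.294). With tumours of at least 5 cells let in, Cxcl9 was at -1.96 (adjusted p = 0.758) and C1qa at -0.84 (adjusted p = 0.944), all in edgeR. Without cells holding T cell UMIs all 4 were called again, among 10 genes.

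Of the fixed lists, the interferon-gamma response had 7 of 24 genes at p under 0.05 against Mono_Vcan+, all lower, with 2 called, Cxcl9 and Cxcl10. The 14 macrophage markers had 6 at p under 0.05, all lower, with C1qa called. The 12 monocyte markers had 4 at p under 0.05, all higher and 0 called. Their medians were -0.24, -0.54 and 0.51, against 0.02 over all genes.

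Against DC_other, 0 of 4319 genes passed in edgeR (0.0%), over 2 BD+ICB and 2 ICB tumours. At an unadjusted p under 0.05 there were 215 genes (4.98%), and DESeq2 called 1.

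**Figure D5:**
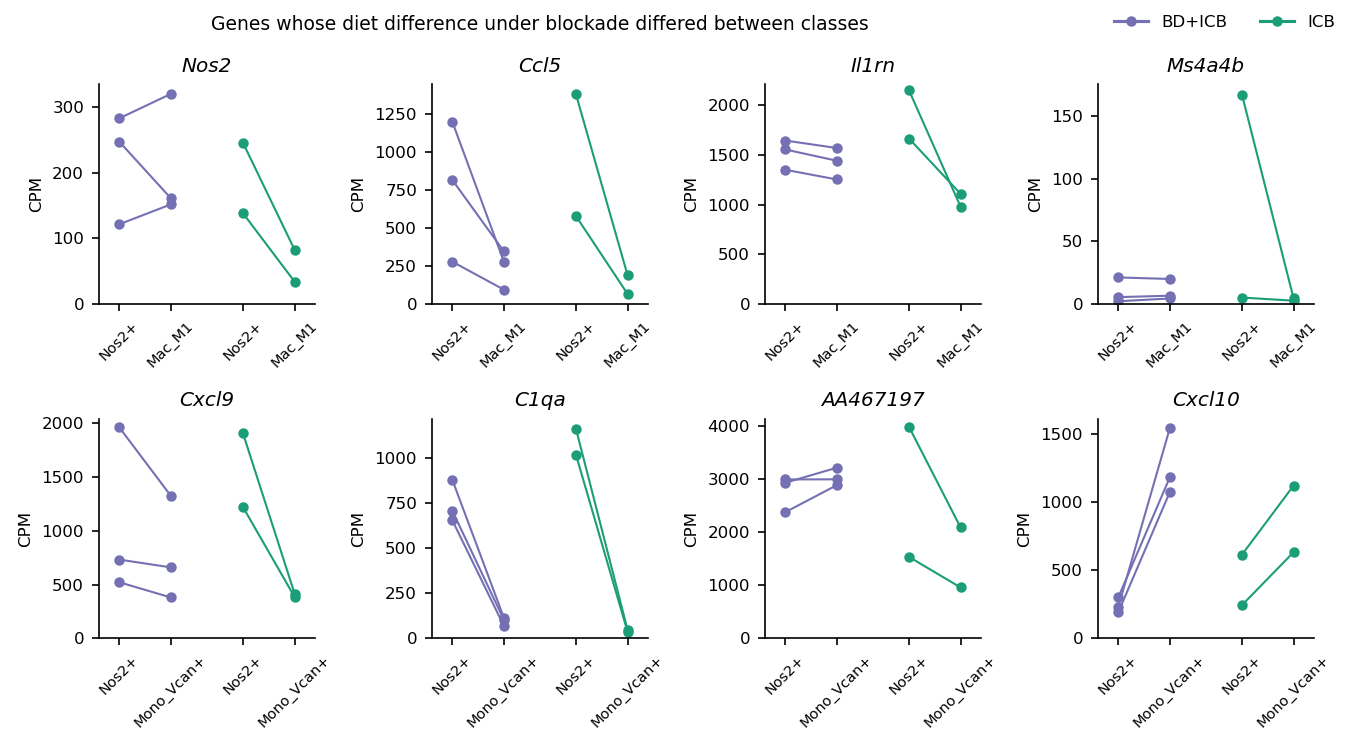
CPM of the 8 genes called by edgeR's interaction test of class by diet under blockade in the main setting. The Nos2+ class is set beside Mac_M1 (upper row) or Mono_Vcan+ (lower row), with lines joining the 2 classes of a tumour. DESeq2 called 0 of the 4 genes in the upper row and 2 of the 4 in the lower row. For Nos2 the BD+ICB tumours have 283, 122 and 247 CPM in the Nos2+ class, against 320.1, 152 and 161 CPM in Mac_M1, whereas ICB tumours have 138 and 245 CPM in the Nos2+ class, against 34.2 and 82.9 CPM in Mac_M1.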

How the data were processed

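Cells from 12 tumours in 4 groups of 3 were used as deposited. The gene and hashtag counts per cell were made by the authors on mm10 (Cell Ranger 6.1.1, per the file headers), and R 4.1 is named in the submitters' processing notes. Mitochondrial percent values were deposited in the authors' cell table, which also gave class names, tumours and groups. No source used here gives the clustering settings, or says whether hashtag counts are reads or UMIs. All deposited cells had over 500 hashtag counts. The class, its members and the gene lists were chosen with earlier results of these data known. No doublet caller was run.

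Counts were summed per tumour and class, and sums over at least 10 cells were used. Genes were tested with edgeR 4.0.16 (quasi-likelihood, trimmed mean scaling, Benjamini-Hochberg adjustment, threshold 0.05), with the code checked on simulated data, and DESeq2 1.42.0 was an alternative. Interaction models held tumour as a block, class, and class by diet. Shares were tested by two-sided exact permutation of diet within library, adjusted over 19 classes. Levels were compared between classes within tumours as log2(CPM + 10), over genes of at least 20 CPM, with a call at 2-fold and the same sign in every tumour. Intervals are 95% Clopper-Pearson, a count of 0 allows 3 counts, and both cover counting error only. Cells were thinned to 2000 UMIs to compare shares with a UMI. The labels name 3 tumours per group and no mice, so p-values measure the spread between tumours.

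Named genes were the markers, the 20 highest and 10 lowest genes against all 3 classes by the smallest difference, list members by level or p, up to 5 called interaction genes in each direction, and a fixed set. Jaml, Pf4, Ckb and Ccnd1 were named after their values were seen, and some genes the rule names are not reported here. Alternatives changed the scaling, filters, cell minimum, hashtag rule, pseudocount, denominator and tumours left out. Motifs were searched in RefSeq promoters of GRCm38.p6.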

Additional observations from a re-analysis of the deposited data

Results flagged for a closer look

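In 8 genes the diet difference under blockade differed between the Nos2+ class and another class by edgeR's interaction test, adjusted over all genes tested. Against Mac_M1 the interaction (log2, Nos2+ class minus Mac_M1, BD+ICB minus ICB) was -1.76 for Nos2, -1.28 for Ccl5, -0.72 for Il1rn and -4.55 for Ms4a4b. All 17 Ms4a4b UMIs in ICB replicate 3 came from 1 cell, and without that tumour Ms4a4b was at -1.11. Against Mono_Vcan+ it was -1.54 for Cxcl9, -1.68 for C1qa, -0.93 for AA467197 and -1.34 for Cxcl10. The tests rest on 3 BD+ICB and 2 ICB tumours, and on class names taken to come from the same expression data.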

How the results depend on the processing

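The share of the class in BD minus SD tumours ranged from -0.768 to 2.37 points with a tumour left out, and turned negative without BD replicate 1. By edgeR on cells per class the log2 difference was 2.08 for the diet over both libraries and 2.26 for BD+ICB against ICB, both past the threshold. As a share of the class plus Mac_M1, an alternative chosen after seeing the data, the difference was -14.3 points for BD minus SD, 14.8 for BD+ICB minus ICB and 0.255 for the diet over both libraries. No other alternative changed the direction or the side of the threshold of the shares. With at least 20 cells, 7 genes were higher than in Mac_M1, and 891 were higher and 562 lower than in DC_other. With a pseudocount of 1 CPM, 8 were higher and 61 lower than in Mac_M1, and 184 higher and 132 lower than in Mono_Vcan+. With a tumour left out, 4 to 8 were higher and 11 to 19 lower than in Mac_M1. Genes called between BD+ICB and ICB in the class were 3 by DESeq2, 12 with no filter on low counts, 9 with at least 20 cells, 8 by a stricter hashtag rule and 0 to 9 with a tumour left out. A replicate block gave 9 calls, but same-numbered tumours did not deviate together (correlations -0.000135 and 0.0531), so the numbers were not taken to pair the tumours. Without ICB replicate 1, Nos2 in this comparison was at -0.14 (0.65 without ICB replicate 3) and Cxcl10 at 0.0372 (-1.32 without ICB replicate 3). Interaction calls against Mac_M1 were 0 by DESeq2, 12 with no filter, 1 by the stricter hashtag rule, 1 without cells holding T cell transcripts, and 1 to 16 with a tumour left out. Against Mono_Vcan+ they were 12 with no filter, 1 with at least 5 and 20 with at least 20 cells, 7 by the stricter hashtag rule, 10 without cells holding T cell transcripts, and 0 to 20 with a tumour left out. Against DC_other they were 1 by DESeq2, 19 with no filter, 1 with at least 5 cells, 9 by the stricter hashtag rule and 0 to 25 with a tumour left out, and at least 20 cells was not run because it could not be fitted. The setting without T cell transcripts was also chosen after seeing the data. In the gene tests, settings with at least 20 cells, or without 1 ICB tumour, leave a single ICB tumour that is assumed to vary like the others. The cause of these changes was not tested. The few cells per tumour limit every gene comparison in the class.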
